A study of Homo sapiens with 2 samples.

Results

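GAS1 and the core genes of the hedgehog pathway were examined for binding of TCF7L1, one of the TCF/LEF transcription factors, in HCT116 cells, an established human colon adenocarcinoma line. The members were 9 genes of 20033 protein-coding genes on chromosomes 1 to 22, X and Y, namely the co-receptors GAS1, CDON and BOC, the receptor PTCH1, the ligand-binding inhibitor HHIP, the transducer SMO and the transcription factors GLI1, GLI2 and GLI3. They were chosen by name, and a summit, the position where most reads of a called region stack up, was assigned to a gene when it lay inside the gene or within 100 kb of a transcription start site (TSS) of any of its GENCODE transcripts. By this rule 10 of 3762 TCF7L1 summits and 0 of 224 TCF7L1-MUT summits belonged to the members. The study had 2 samples, 1 in each group. Both groups were HCT116 cells that carried a lentiviral short hairpin RNA (shTCF7L1-2), which lowers the cells' own TCF7L1 transcript, and a doxycycline-inducible pCW57.1 plasmid, and both received doxycycline at 1 µg/ml. In the TCF7L1 group the plasmid encoded TCF7L1, and in the TCF7L1-MUT group it encoded TCF7L1 with a mutated DNA-binding domain, so the binding measured was that of an added protein and not of the endogenous one. ChIP-seq with anti-FLAG antibody measured the binding, and regions were called by the authors with MACS2, separately for the samples. Without replicates no p-value was computed, and every difference between the groups describes these 2 libraries.

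Hedgehog ligands bind PTCH1, which in their absence keeps SMO inactive, and active SMO leads to GLI-dependent transcription. GAS1, CDON and BOC are cell-surface proteins that bind the ligands together with PTCH1 and promote signalling, while HHIP binds and sequesters them. In the intestine the ligands come mainly from the epithelium and act mostly on the underlying mesenchyme, and TCF7L1 acts in the Wnt pathway, where it is best known as a repressor.

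The sequences under the summits are shown to allow the match to a TCF/LEF site to be seen for each member that had a summit. Capitals mark CTTTG, the core of the TCF/LEF site, or its reverse complement CAAAG, and every sequence is written 5′ to 3′ on the strand of its gene in GRCh38/hg38. For GAS1 the 250 bases upstream of the TSS are given from the RefSeq promoter (GRCh38.p14), at chr9:86947507-86947756 on the minus strand. The other 5 sequences are 201 bases centred on a single-copy summit, at chr9:86868002-86868202 (GAS1, minus strand), chr11:126059481-126059681 (CDON, minus strand), chr3:113166836-113167036 (BOC, plus strand), chr9:95581141-95581341 (PTCH1, minus strand) and chr7:42192859-42193059 (GLI3, minus strand).
GAS1 promoter: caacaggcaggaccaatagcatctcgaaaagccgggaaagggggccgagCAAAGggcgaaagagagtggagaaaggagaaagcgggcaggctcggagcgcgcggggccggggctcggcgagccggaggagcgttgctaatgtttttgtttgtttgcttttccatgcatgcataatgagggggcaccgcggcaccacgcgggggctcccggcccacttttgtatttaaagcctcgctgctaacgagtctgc
GAS1 downstream: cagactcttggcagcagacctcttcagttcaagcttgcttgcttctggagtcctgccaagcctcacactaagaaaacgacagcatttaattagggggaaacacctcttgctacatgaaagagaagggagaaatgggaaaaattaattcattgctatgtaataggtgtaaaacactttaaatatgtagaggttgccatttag
CDON internal start: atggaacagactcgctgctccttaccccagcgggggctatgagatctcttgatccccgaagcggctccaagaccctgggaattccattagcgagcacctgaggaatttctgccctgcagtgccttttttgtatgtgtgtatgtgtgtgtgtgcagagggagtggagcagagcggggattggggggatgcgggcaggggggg
BOC upstream: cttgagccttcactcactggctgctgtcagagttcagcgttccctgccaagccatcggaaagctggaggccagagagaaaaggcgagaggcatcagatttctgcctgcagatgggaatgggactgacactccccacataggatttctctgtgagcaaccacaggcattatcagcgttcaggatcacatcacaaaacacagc
PTCH1 upstream: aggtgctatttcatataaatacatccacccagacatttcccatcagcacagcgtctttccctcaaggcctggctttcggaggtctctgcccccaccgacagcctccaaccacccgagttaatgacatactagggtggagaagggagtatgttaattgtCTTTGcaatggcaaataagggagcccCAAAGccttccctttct
GLI3 intron: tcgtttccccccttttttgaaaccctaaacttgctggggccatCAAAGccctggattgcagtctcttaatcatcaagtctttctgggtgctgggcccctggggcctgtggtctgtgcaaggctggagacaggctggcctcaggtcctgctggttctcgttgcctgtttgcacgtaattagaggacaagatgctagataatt
In the GAS1 promoter the summit is base 89, counted from 1 at the 5′ end of the printed run, and the single CAAAG takes bases 50 to 54. The GLI3 intron also held a single CAAAG, which is part of the longer match ATCAAAG. The PTCH1 sequence held 1 CTTTG and 1 CAAAG, both in its last 50 bases. The downstream GAS1, CDON and BOC sequences held neither.

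To ask which members had TCF7L1 nearby, summits were counted gene by gene. In all, 5 members had at least 1 TCF7L1 summit: GAS1 had 4, CDON and BOC had 2 each, and PTCH1 and GLI3 had 1 each. All 3 co-receptor genes were thus among the members with an assigned summit, whereas HHIP, SMO, GLI1 and GLI2 had none. This was 5 of 9 members (55.6%), beside 23.1% of all protein-coding genes (4619 of 20033). TCF7L1 binding at the GAS1 promoter had already been reported from these libraries, so the GAS1 summit was known in advance. The member shares and densities that include GAS1 are therefore descriptive only. Counting for each gene only summits whose nearest protein-coding TSS was its own, the same 5 members had a summit, beside 10.5% of all protein-coding genes. At promoters, taken as within 2.5 kb of a TSS, 2 of the 9 members (GAS1 and CDON) had a TCF7L1 summit, beside 4.8% of all protein-coding genes. In the TCF7L1-MUT list 0 of 9 members had a summit, beside 0.739% of all protein-coding genes, and 0 of 9 had one at a promoter, beside 0.0449%. A share of 0 is near these low backgrounds and is not read as a result about the members. None of the 10 member summits lay in a region that overlapped a TCF7L1-MUT region by 1 bp or more, and 3.80% of all TCF7L1 summits did.

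**Figure D1:**
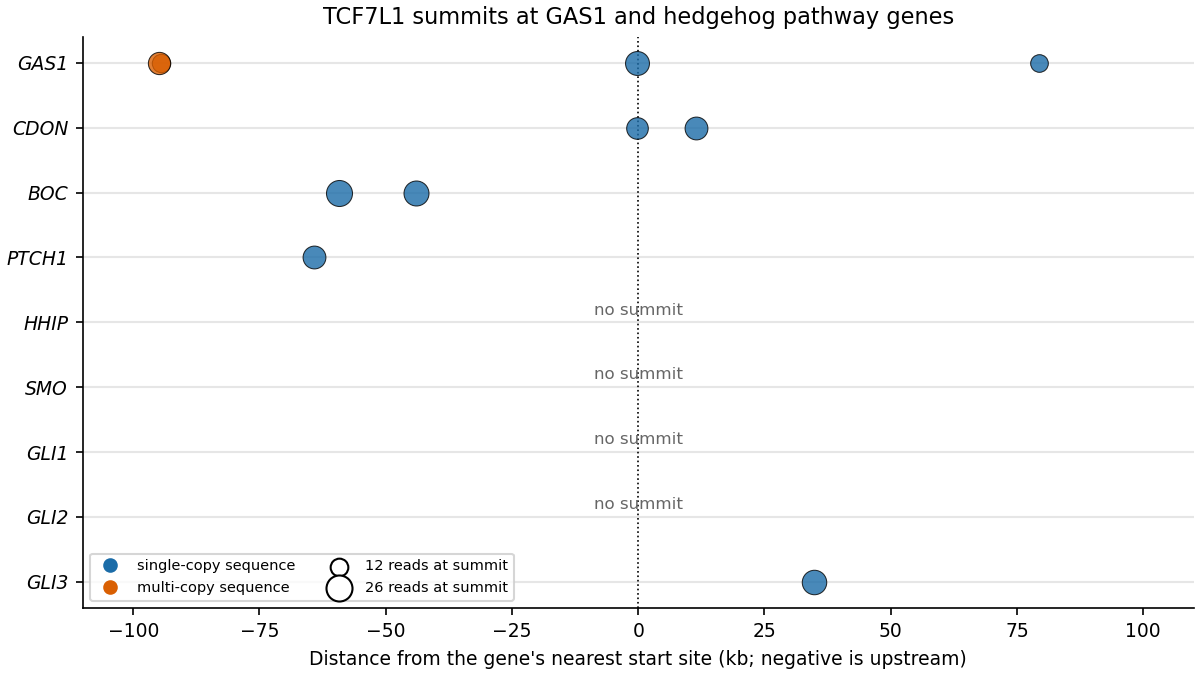
TCF7L1 summits at the 9 members, plotted by distance in kb from the nearest start site of the gene (negative is upstream), with 1 row per gene. Each circle is 1 summit, its area follows the reads stacked there (12 to 26), and colour marks single-copy or multi-copy sequence. GAS1 and CDON have a summit at 0, and 4 genes have none.

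The rule searches more sequence for longer genes, and 6 of the 9 members (PTCH1, GLI2, GLI3, HHIP, CDON and BOC) belonged to the longest of 5 equal groups of genes by sequence searched. In that group 36.9% of genes had a TCF7L1 summit, and 4 of these 6 members did. GAS1, a gene of 3145 bp, belonged to the shortest group, with 200.001 kb searched. In that group 18.4% of genes had a summit and 0.898% had 4 or more. The share of genes with a promoter summit was 2.05% in this group and 11.8% in the longest, to which CDON belonged. Over all members 10 summits fell in 2.58 Mb, a density of 3.87 per Mb, beside 1.45 per Mb around all protein-coding genes and 1.25 per Mb over the chromosomes. The density was 20.0 per Mb at GAS1, 7.31 at BOC, 7.11 at CDON, 3.74 at PTCH1 and 2.06 at GLI3. Counting only summits in sequence that occurs once in the genome (single-copy), the members had 8 summits. This was 3.10 per Mb of all sequence searched, repeats included, beside 1.19 per Mb around all protein-coding genes.

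**Figure D2:**
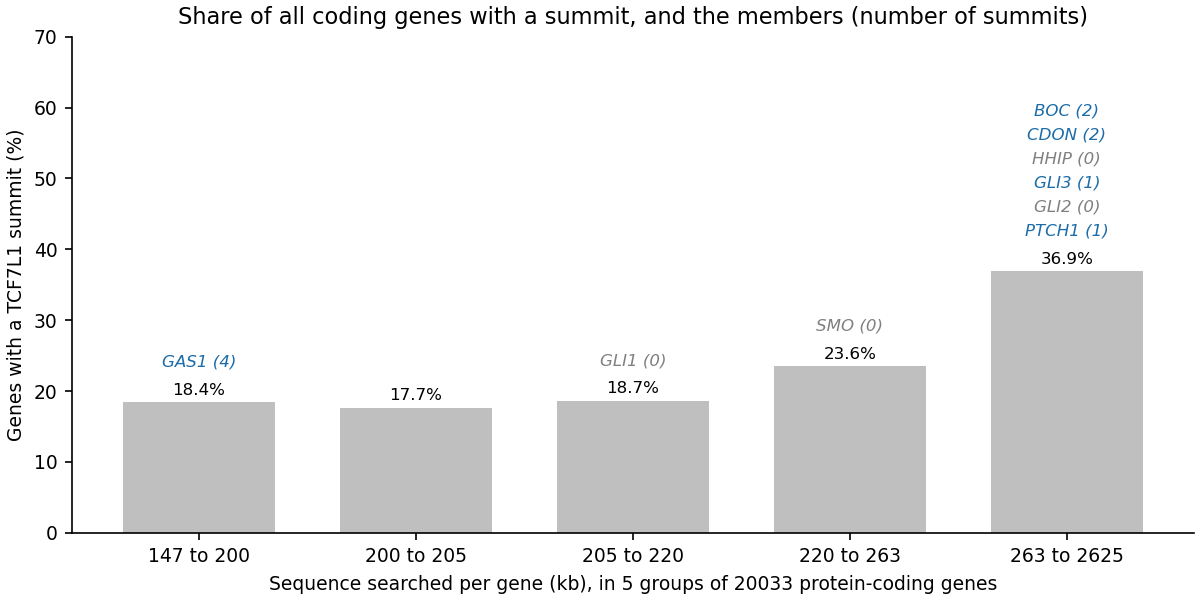
Share of protein-coding genes with a TCF7L1 summit (bars, percent), in 5 equal groups of genes by the sequence searched per gene in kb. The members are written above the bar of their group with their number of summits, so that GAS1 with 4 summits stands above a bar of 18.4% and 6 members stand above the bar of 36.9%.

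GAS1 (growth arrest specific, ENSG00000180447.7) lies on chromosome 9 at 86944362 to 86947506 on the minus strand and has a single annotated TSS. Its promoter region spanned 86947436 to 86947760, with 254 bp upstream of the TSS and 71 bp in the first exon, and its summit at 86947668 was 162 bp upstream of the TSS. A total of 22 reads were stacked at the summit (95% Poisson interval, 13.8 to 33.3) over a local background of 3.50. This interval, like the others given here, covers counting error only. The fold enrichment, which is the ratio of reads to local background with 1 added to both, was 5.11, and the −log10 q-value, with q the p-value corrected over the genome, was 6.44. The fold enrichment ranked 1709 of 3762, near the middle of the TCF7L1 list. Among 959 TCF7L1 summits at promoters of protein-coding genes, 33.7% had a fold enrichment at least as high, and 36.1% lay as close to a TSS or closer. Its strength and its position were thus both common among promoter summits.

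The next GAS1 summit lay 79.404 kb downstream of the TSS (9:86867942-86868285), in intergenic sequence where no TSS of any annotated gene was closer than that of GAS1. It had 12 reads (6.20 to 21.0) over a background of 1.58. Fold enrichment was 5.04 and −log10 q was 3.38. The remaining 2 GAS1 summits shared 1 region of 816 bp on the upstream side (9:87041795-87042610), in an exon of the long non-coding RNA (lncRNA) LINC02893. The one at 94.855 kb had 19 reads (11.4 to 29.7) over a background of 2.05 and a fold enrichment of 6.57, the highest of the 10 member summits and rank 563 of 3762, and it lay 58 bp from a LINC02893 TSS. The one at 94.459 kb had 13 reads (6.92 to 22.2), a fold enrichment of 4.60 and lay 161 bp from another annotated start of LINC02893. For comparison, 13.7% of TCF7L1 summits on the chromosomes lay within 2.5 kb of a lncRNA TSS.

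Both of these upstream summits lay in repeated sequence. Of the 31-base words in the 201-bp window, 100% at the stronger and 76.6% at the weaker summit occurred more than once in the genome, with a median of 1287 and 744 copies, and from which copies the reads came was not tested. Windows with at least 50% of such words were called multi-copy, which applied to 21.0% of all TCF7L1 windows and 93.1% of all TCF7L1-MUT windows, and to no other member summit. Without the multi-copy summits GAS1 kept 2 summits, the promoter summit and the downstream one. At least 4 summits of any kind were found at 0.844% of protein-coding genes, and at least 2 single-copy summits at 4.54%. With single-copy summits alone the same 5 members had a summit, beside 19.6% of all protein-coding genes, and the same 2 had one at a promoter, beside 4.45%.

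The GAS1 promoter lies in a gene-poor stretch. The next protein-coding genes were DAPK1, 549.722 kb away on the upstream side, and TUT7, 589.908 kb away on the downstream side, and 0.684% of protein-coding genes had distances of at least 549.722 kb on both sides. Between them the annotation places lncRNAs, of which GAS1RR starts 1.123 kb upstream of GAS1 and runs the opposite way. The GAS1 promoter summit lay between the starts of GAS1 and GAS1RR, nearer that of GAS1 and within 2.5 kb of each. Just inside the limit of 100 kb were the pair of summits at 94.459 and 94.855 kb, and just outside it on that side was a summit at 193.310 kb with a fold enrichment of 4.36, near the lncRNA LINC02872. The next one upstream was 2233 kb away, with a fold enrichment of 6.62, and lay near the start of SHC3. On the downstream side the next summits lay at 335.685 kb, with a fold enrichment of 4.79 and TUT7 as the nearest protein-coding gene, and at 789.900 kb, with a fold enrichment of 4.02 and GOLM1 as the nearest.

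**Figure D3:**
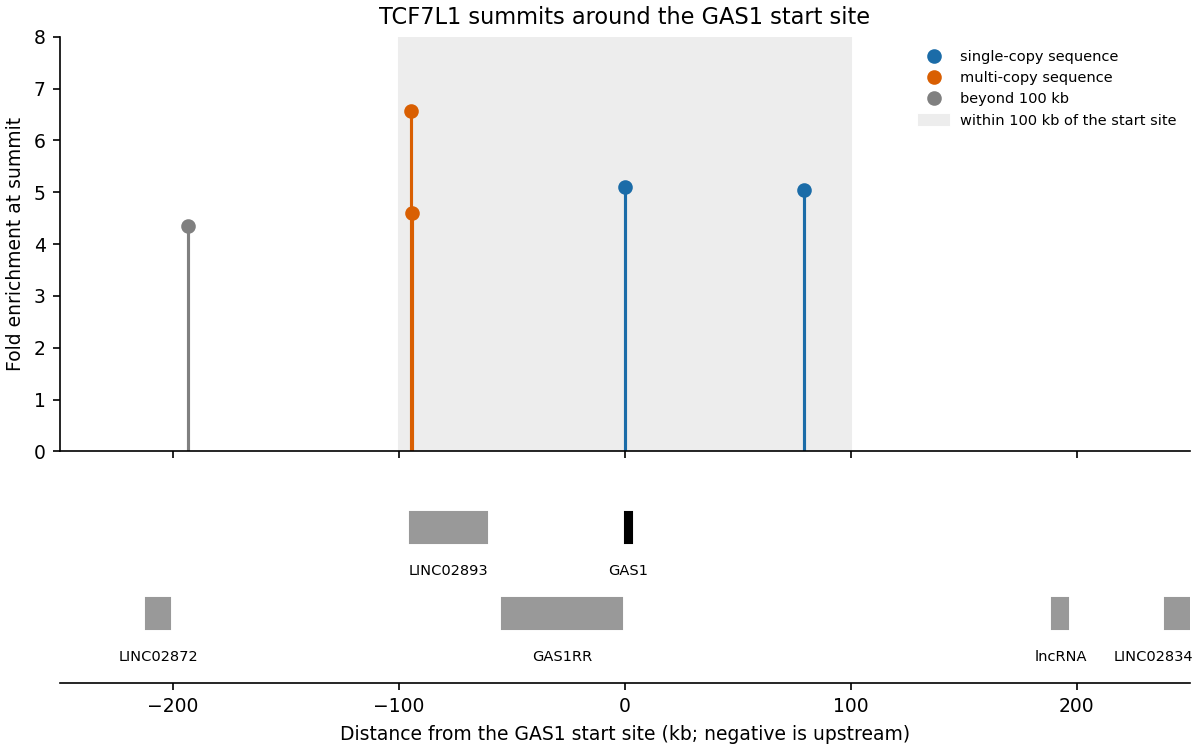
TCF7L1 summits within 250 kb of the GAS1 start site. The upper panel plots fold enrichment at the summit against distance in kb (negative is upstream), with the searched 100 kb shaded, and the lower panel shows GAS1 (black) and lncRNA genes (grey) to scale. The promoter and downstream summits are in single-copy sequence at 5.11 and 5.04, and the pair near LINC02893 is in multi-copy sequence.

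CDON and BOC encode related transmembrane co-receptors of the immunoglobulin superfamily. CDON (11:125955796-126063335, minus strand) had a summit at 126059581, 154 bp upstream of an internal start, with 18 reads (10.7 to 28.4) over a background of 3.41. Its fold enrichment was 4.31, with 3.83 as −log10 q-value. The start belongs to a transcript annotated as a retained intron. The summit was 3.754 kb downstream of the 5′ end of the gene and 3.285 kb from the nearest start of a protein-coding transcript. At 2.5 kb CDON thus counted as having a promoter summit only with starts of all transcripts. A RefSeq promoter of CDON (126059313 to 126059612) also contained the summit. The second CDON summit was intronic, 11.347 kb from the nearest start and 92.735 kb from the 5′ end of the gene, with 20 reads and a fold enrichment of 4.34. At BOC (3:113211003-113287459, plus strand) both summits were upstream, at 59.170 kb with 26 reads (17.0 to 38.1) and a fold enrichment of 4.48, and at 44.067 kb with 24 reads (15.4 to 35.7) and 4.26. Both lay in introns of the lncRNAs NEPRO-AS1 and LINC02044, and the nearer one was 883 bp from a LINC02044 TSS. BOC thus had the most reads at a summit of all members but also the highest local backgrounds, 5.02 and 4.87.

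PTCH1, the receptor and itself a common transcriptional target of the pathway, lies on the same chromosome as GAS1 (9:95442980-95517057, minus strand). Its summit was 64.184 kb upstream in intergenic sequence (95580908 to 95581473), with 20 reads (12.2 to 30.9) over a background of 4.40. The fold enrichment of 3.89 was the lowest of the 10 and ranked 3194 of 3762. No summit lay at any of the 5 RefSeq promoters of PTCH1. The nearest TSS of any kind to the PTCH1 summit was that of an unnamed lncRNA, 25.045 kb away.

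GLI3, which acts mainly as the repressor of the GLI factors, had 1 summit (7:42192766-42193170) in an intron, 71.141 kb downstream of the 5′ end of the gene and 34.762 kb from the nearest start. It had 23 reads (14.6 to 34.5) over a background of 3.60. Its fold enrichment (5.22) and its −log10 q (6.98) were the highest among the 8 single-copy member summits. GLI2, the main activator, had its nearest TCF7L1 summit 13.544 kb beyond its 3′ end, but 208.852 kb from its nearest TSS and so outside the rule, with a fold enrichment of 4.10. The nearest TCF7L1 summit was 774.335 kb from GLI1, a factor induced by the pathway itself, 738.703 kb from SMO and 289.570 kb from HHIP. These 3 genes were thus far from any listed summit. The nearest TCF7L1-MUT summit was at least 14.1 Mb away from each member on a chromosome that held one, and the chromosome of GLI1 held none.

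**Figure D4:**
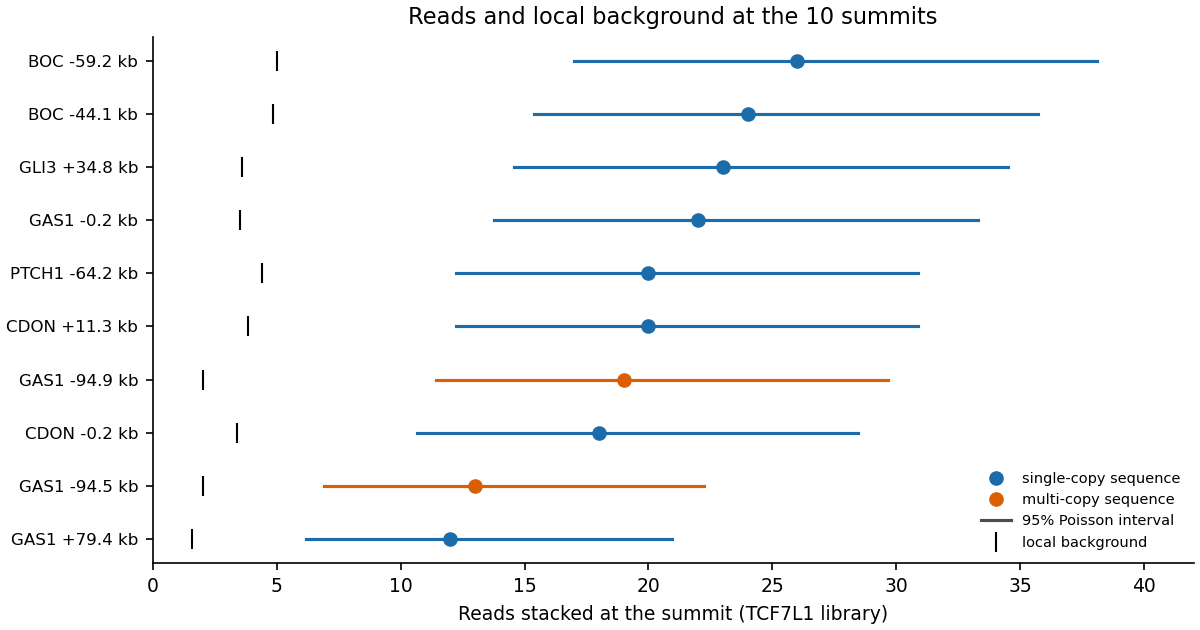
Reads stacked at each of the 10 member summits (points) with 95% Poisson intervals (lines) and the local background in reads (black ticks), ordered by reads. Labels give the gene and the distance from its nearest start in kb. Summits were called for an excess over this background, so that every interval lies above it was fixed by the calling. The intervals of all 10 summits overlap one another between 17.0 and 21.0 reads.

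The members' summits were compared with the whole list for strength. Their median fold enrichment was 4.54 (range, 3.89 to 6.57), beside 4.98 for all 3762 TCF7L1 summits (quartiles, 4.21 and 5.89) and 4.59 for promoter summits. The median −log10 q-value was 4.83, beside 5.44 for all TCF7L1 summits, and the median of reads was 20 in both. Local background had a median of 3.55 reads at the members and 3.29 in the list. The 8 of 10 summits assigned by distance to the 3 co-receptor genes had fold enrichments between 4.26 and 6.57. The highest was in multi-copy sequence at a LINC02893 start, and the highest in single-copy sequence was 5.11, at the GAS1 promoter. No member summit was among the strongest of the list, which reached a fold enrichment of 22.1.

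**Figure D5:**
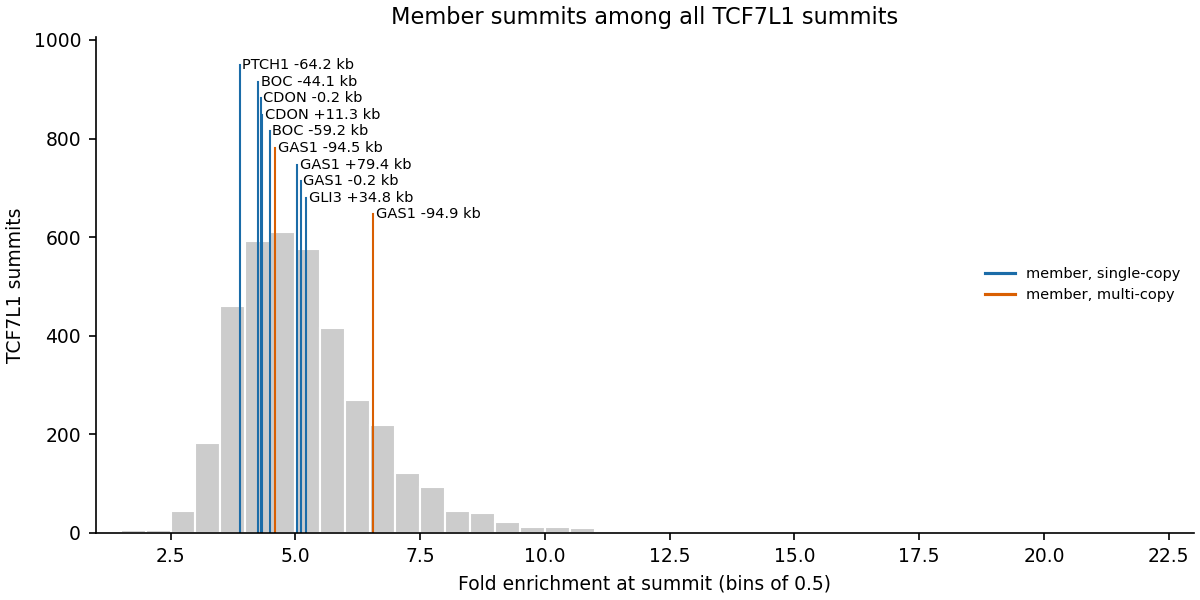
Fold enrichment of all 3762 TCF7L1 summits (grey bars, number of summits in bins of 0.5), with the 10 member summits as labelled lines whose height carries no value. A total of 9 lines stand between 3.89 and 5.22, within the bulk of the list, and the multi-copy GAS1 summit stands at 6.57.

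For 10 of 10 member summits the nearest protein-coding TSS was that of the member itself. Under the same rule 2936 summits formed 6666 pairs with protein-coding genes, and in 2912 pairs (43.7%) the gene's TSS was the nearest. A summit near several genes counts in several pairs but has a single nearest gene. The 43.7% is therefore not a share of summits, and no excess at the members is read from it. When TSSs of all annotated genes were considered, the member was nearest for 5 of 10, and lncRNA starts were nearer to the pair of summits upstream of GAS1, both BOC summits and the PTCH1 summit.

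Sequence patterns were searched on both strands within 100 bp of each summit. A full TCF/LEF match, which is CTTTG followed by a pair of bases that are each A or T, was found at 2 of 10 member summits (20.0%, Wilson 95% interval 5.67 to 51.0), beside 26.8% of all TCF7L1 windows and 23.9% at promoter summits. These were the GLI3 summit, with CTTTGAT 56 bp from it, and the multi-copy GAS1 summit at 94.855 kb, with CTTTGTT 11 bp from it. The core CTTTG, which every full match contains, was found at 4 of 10 member summits, beside 56.4% of all. A further TCF/LEF pattern, TTTKAW (K is G or T, W is A or T), was reported earlier as enriched in TCF7L1 promoter regions of these libraries. It was found at 3 of 10 member summits (30.0%, 10.8 to 60.3), beside 53.4% of all and 48.2% at promoter summits. The members' share was lower than that of the list for each of these patterns, but the interval for 10 windows includes the list's value each time. The interval takes the windows as independent, although 4 of them belong to GAS1 and lie in 3 regions, so it is a rough guide only. At the GAS1 promoter the printed CAAAG, 37 bp from the summit, was the only match to any pattern searched within the whole called region, and the nearest full TCF/LEF match was 1608 bp from the summit. A distance as large or larger was found at 5.86% of all TCF7L1 summits, for which the median distance was 263 bp. The upstream BOC summit at 59.170 kb was farther still from a full match, at 1775 bp. The median over the 10 member summits was 327 bp.

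Patterns of other factors were treated alike. The GLI pattern GACCACCCA with at most 1 mismatch, the site of the pathway's own factors, was found at 0 of 10 member summits, beside 3.76% of all. The AP-1 pattern TGANTCA, with C or G as its middle base, was at 0 of 10, beside 7.31%, and the GC box GGGCGG at 0 of 10, beside 14.4%. The forkhead pattern TNTTTAC, with A or G as its second base, was at 1 of 10, beside 12.6%, where it overlapped the CTTTGTT at the multi-copy GAS1 summit. The GATA pattern NGATAN, with A or T first and A or G last, was at 4 of 10, beside 31.8%, and the E-box CANNTG at 4 of 10, beside 64.1%. With 10 windows a count of 0 has an upper Wilson bound of 27.8%, so a count of 0 could not separate the members from the list. This bound too takes the windows as independent, so the counts are descriptive only. A match in a window is a description of its letters and not of binding by the factor.

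The RefSeq table held promoters of 300 bases (250 before and 50 after the start) for 7 of the 9 members, GLI1 and GLI3 being the others, with 15 promoters in all. A full TCF/LEF match was found in 2 of these 15, 1 of GLI2 and that of SMO, beside 13.8% of 35116 promoters, and neither gene had a summit. The GLI pattern without mismatch was found in 1 promoter of PTCH1, beside 0.236% of all promoters. A TCF7L1 summit lay in 2 of the 15, those of GAS1 and CDON named above. In base composition the GAS1 promoter window stood apart from most of the list, with 16 CpG dinucleotides and a ratio of observed to expected CpG of 1.03, a value reached by 2.78% of all TCF7L1 windows and by 6.67% of promoter windows. Its GC content was 57.7%, beside a median of 54.2% at promoter summits, and the 10 member windows had a median of 52.5%, beside 51.7% for all.

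To place the members within the wider pathway, 48 other hedgehog genes were counted by role. A TCF7L1 summit was assigned to 12 of them (25%), beside the 23.1% of all protein-coding genes, and a promoter summit to 6 (12.5%), beside 4.8%. None had a TCF7L1-MUT summit, beside 0.739% of all protein-coding genes, and this too is not read as a result. None of the 3 ligand genes had a summit. Of 5 genes for ligand release 1 did, DISP1, whose product releases the lipid-modified ligand, with a summit inside the gene, 78 bp downstream of an internal start, and a fold enrichment of 7.65, rank 233 of 3762. Of 6 further receptors and surface regulators 2 did, GPR161 and LRP2, neither at a promoter. Of 17 signal transduction genes 5 did, with promoter summits at the kinase genes GSK3B, PRKACB and CSNK1A1. The GSK3B summit was in an intron, 2.002 kb upstream of an internal start, with a fold enrichment of 7.22. Those of PRKACB and CSNK1A1 were 272 bp (fold enrichment 4.60) and 123 bp (3.75) upstream. The PRKACB summit, with 12 reads, lay in an exon of the lncRNA PRKACB-DT, whose TSS was nearer, at 171 bp. Of 12 transcriptional targets 3 had a summit, and the promoter summit was at CCND1, which encodes cyclin D1, 98 bp upstream with a fold enrichment of 4.53. Of the 5 GDNF receptor family genes, to whose products GAS1 is related in sequence, GFRA3 had a summit 988 bp upstream with 35 reads and a fold enrichment of 5.42. GSK3B, CSNK1A1 and CCND1 also take part in Wnt signalling or are known targets of it, and the lists do not tell the pathways apart. The share of pathway genes with a summit was thus near that of all genes. Neither this share nor that with a promoter summit was matched for the sequence searched.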

How the data were processed

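Anti-FLAG ChIP-seq of 2 HCT116 samples was analysed, with groups taken from the labelled genotype. Processing by the authors comprised trimming with skewer, alignment by BWA 0.7.12 against GRCh38/hg38, and MACS2 2.1.0 peak calling per sample (versions per the submitters' processing notes). Use of an input library, the threshold and the handling of duplicate and multi-mapping reads are not given in the sources used here. The local background is the expected read number that MACS2 set at a summit, so fold enrichment is not to be read as a ratio to input. The deposited peak lists hold a fold enrichment ratio and the −log10 p-value and −log10 q-value of every summit. The deposited score and the summit lists, whose values repeat these, were not used. Total read depth was not analysed here, and no limit from a count of 0 applies to lists of called regions.

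The whole read number and background of a summit were recovered by solving its fold enrichment (pseudocount 1) together with its Poisson p-value, to a tolerance of 0.001 in −log10 p, for 3762 of 3762 TCF7L1 and 223 of 224 TCF7L1-MUT summits. Genes and TSSs came from GENCODE release 44, promoters from RefSeq (GRCh38.p14). All 15 member promoters were identical to the genome used. Coordinates are 1-based. Pattern and copy counts used the 3666 TCF7L1 and 145 TCF7L1-MUT summits on chromosomes 1 to 22, X and Y. Windows were 201 bp, and copies were counted for 31-base words. Python 3.11.15, numpy 2.4.6, scipy 1.17.1 and pandas 2.3.3 were used, and the code was checked on simulated data.

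The members, the list of 48 pathway genes and the patterns were chosen with earlier results of these data known. All 9 members were named with every summit. Of the pathway genes those with a promoter summit were named with values, and others by count or by name alone. At GAS1 the 2 nearest further summits on either side were named. Alternatives were a minimum fold enrichment of 5, a maximum q-value of 0.001, 1 summit per region, distances of 50 and 250 kb, promoters of 1 and 5 kb, other TSS sets, region edges, windows of 50 and 250 bp to either side, and other TCF patterns.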

Additional observations from a re-analysis of the deposited data

How the results depend on the processing

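Of 64 recomputed values 9 moved past the limit set for them. A reversal of direction was not scored. The limit was 1.5 times for a count, any change for the GAS1 distance, and the 95% binomial interval for the median fold enrichment and for the share of summits with a full TCF/LEF match. The interval of that share is wide with 10 summits. Within it the share of 20.0% became 50% with a fold enrichment of at least 5. With windows of 50 and 250 bp to either side it became 10.0% and 40.0%. With CTTTG in place of the full match it was 40.0%, and with TTTKAW 30.0%. A fold enrichment of at least 5 left 2 members (GAS1 and GLI3, beside 11.7% of all protein-coding genes), 4 summits, 6 pathway genes and 1 member with a promoter summit (GAS1, beside 1.92%). A distance of 50 kb left 5 member summits and 4 members, without PTCH1, beside 15.5% of all protein-coding genes. A distance of 250 kb gave 25 pathway genes and added GLI2 to the members, beside 41.2% of all protein-coding genes. With the 5′ end of each gene alone (beside 3.34% of all protein-coding genes), and with starts of protein-coding transcripts alone (beside 4.25%), 1 member (GAS1) had a promoter summit and CDON did not, since its nearest start is of a retained-intron transcript. Measured from the region's edge the GAS1 distance was 0 bp, since the region covers the TSS. Counts of members with a TCF7L1-MUT summit were 0 under each alternative run. Single-copy summits alone, a setting that was chosen after seeing the data, gave 5 members, 8 summits, a median fold enrichment of 4.41 and a full TCF/LEF match at 12.5%. With 12 to 26 reads at a member summit, the counting intervals of the 10 summits overlap, and differences in reads between summits were not tested. No paired analysis was possible because the design holds a single library on either side.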

Other observations

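Some pathway genes had several TCF7L1 summits that the report gives by count alone. PRKACB, which encodes a catalytic subunit of protein kinase A, had 4 summits, of which the one at 52.800 kb was in multi-copy sequence. FOXF2, a forkhead gene that hedgehog induces in gut mesenchyme, had 3, at 54.050 kb and 20.519 kb upstream and 7.557 kb downstream of its TSS, with fold enrichments of 3.70, 4.76 and 4.75. GSK3B had a further intronic summit with a fold enrichment of 4.28. The summit assigned to SNAI1 lay in an intron of SPATA2 and the one assigned to GPR161 in an intron of TIPRL, so neither was inside the gene it was counted for.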
